A study of Mus musculus with 16 samples.

Results

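Ribosome assembly in the nucleolus was examined through 54 genes measured in the mouse retina, out of 25905 genes in the deposited expression table. The genes were chosen by name, by a rule that uses no measured value but was written with earlier results of these data known, as nucleolar proteins, ribosomal RNA (rRNA) processing factors, subunits of the RNA exosome, and RNA polymerase I subunits with a factor of that polymerase. The list named 55 genes, and 1 of them is not analysed here.

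The retinas came from wild type C57BL/6 male mice, whose age is given as 10 weeks, which for the spaceflight mice is the age at launch. The spaceflight group of 8 mice lived for 35 days on the International Space Station, and its eyes were collected within about 38 hours of splashdown. The ground control group of 8 mice stayed on Earth in the same type of housing, with the same diet. Each library was made from 100 ng of total RNA of a whole retina, so fewer cells of a type and less RNA per cell cannot be told apart. The columns of counts per library could not be paired with a mouse, so no comparison of spaceflight with ground control was made. The level of each gene is the authors' mean normalized count over all 16 libraries of both groups, which carries no SD. Spread between mice and depth per library are not analysed here.

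Ribosomes are built in the nucleolus. RNA polymerase I transcribes one long precursor rRNA, which small nucleolar ribonucleoproteins (snoRNPs) modify at sites chosen by their guide RNAs, while assembly factors fold and cut it and the RNA exosome trims its ends. Box C/D snoRNPs methylate the ribose of chosen nucleotides, and box H/ACA snoRNPs turn chosen uridines into pseudouridine. Retinal neurons do not divide, but photoreceptors renew their outer segments throughout life and depend on steady protein synthesis.

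The tissue markers were those of a retina. The mean normalized count was 154477 for Gnat1, the rod transducin subunit, 29757 for Sag, the rod arrestin, and 3390 for Nr2e3, a rod transcription factor, while the rod markers Cngb1 and Nrl were lower at 145 and 88.9. Nrl was counted as 2 transcripts. The 5 cone markers counted as 1 transcript lay between 537 and 2800, and Gngt2, counted as 2, was at 4.02. Bipolar markers lay between 8.60 and 4239, amacrine and horizontal cell markers between 47.7 and 2415, and ganglion cell markers between 5.53 and 2999. Müller glia markers lay between 1.39 and 17455, endothelium markers between 0.446 and 1359, and microglia markers between 4.08 and 40.7. The lowest values Pcp2, Rbpms, Rlbp1 and Pecam1 were of genes counted as 2 or more transcripts. Lens markers lay between 8.74 and 898, pigment epithelium markers between 2.72 and 540, and the 5 cornea markers between 0 (Kera) and 11.9 (Krt12). The part of these other tissues in the levels given here was not tested.

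All the ribosome assembly genes were above 0. Their mean normalized counts ran from 0.178 to 5771 with a median of 163, and together they made up 0.284% of the summed means of all genes. To compare genes of different length, levels are given as the mean normalized count per kilobase of transcript, and also per kilobase of coding sequence where the 2 scales disagree. A percentile is the share of genes above 0 that had a lower value, among 15907 genes with a known length. The median percentile of the 54 genes was 69.8 per kilobase of transcript and 64.1 per kilobase of coding sequence, and 44 of 54 lay at or above percentile 50 on the first scale. Genes are not replicates, so these values describe the tissue and carry no test.

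**Figure D1:**
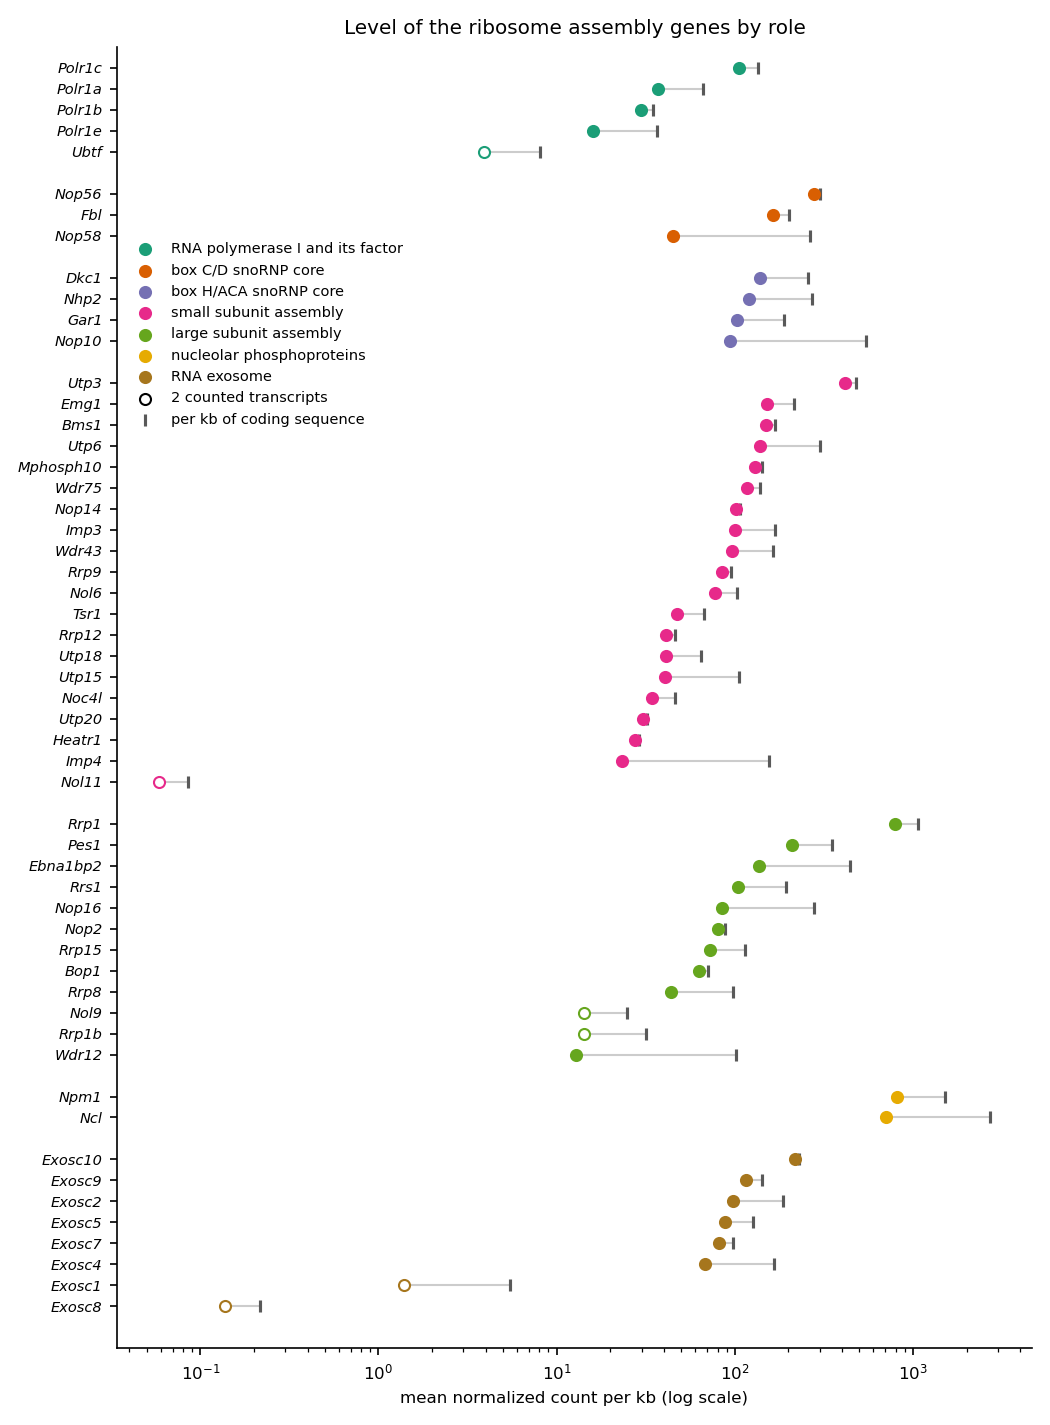
Level of each of the 54 genes, grouped by role and ordered within a role. The x axis is the mean normalized count per kilobase on a log scale, circles are per kilobase of transcript, ticks are per kilobase of coding sequence, and open circles mark the 6 genes counted as 2 transcripts. Npm1, Rrp1 and Ncl stand at the right, between 704 and 817 per kilobase of transcript, and the open circles lie at 14.2 or below.

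The 2 nucleolar phosphoproteins were among the most abundant genes of the group. Ncl encodes nucleolin, an RNA-binding protein that associates with nascent precursor rRNA, and had a mean normalized count of 5771, at percentile 99.5 of all genes above 0. Npm1 encodes nucleophosmin, a histone and ribosome chaperone that shapes the outer layer of the nucleolus, and had a mean normalized count of 1334. Ncl alone held 29.1% of the summed mean normalized counts of the 54 genes, and Ncl, Rrp1 and Npm1 together held 43.7%. These shares are not corrected for transcript length. The order of Ncl and Npm1 depended on the length used. Per kilobase of transcript Npm1 was at 817 and Ncl at 704, while per kilobase of coding sequence Ncl was at 2721 and Npm1 at 1522. The Ncl reference transcript was 8202 bases long with 2121 coding bases. Stretches that make up 53.8% of the Npm1 transcript recurred at 97% identity or more over at least 75 bases, the read length, in 3 other genes, 2 of them pseudogenes, so that the count of Npm1 is uncertain by the reads shared with these copies.

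Of the box C/D core, the list held Nop56, Nop58 and Fbl. Nop56 and Nop58 are the paired scaffold proteins of the particle and Fbl encodes fibrillarin, its methyltransferase. Per kilobase of coding sequence they lay close together, with Nop56 at 299, Nop58 at 265 and Fbl at 201. Per kilobase of transcript the spread was wider, with Nop56 at 277, Fbl at 164 and Nop58 at 44.8, since the Nop58 reference transcript of 9507 bases has 1608 coding bases. The ratio of Nop56 to Nop58 was thus 1.13 on the coding scale and 6.19 on the transcript scale. Fbl shared 57.6% of its transcript with a transcript of the Tulp4 gene, and Nop56 shared 39.0% with 2 pseudogenes, so the levels of both are uncertain.

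The box H/ACA core genes lay close together per kilobase of transcript. Dkc1 encodes dyskerin, the pseudouridine synthase, and was at 139 per kilobase of transcript. Nhp2 was at 120, Gar1 at 103 and Nop10 at 94.4. These small proteins bind dyskerin and are needed for the activity of the particle. The 4 genes thus differed by 1.48-fold from the highest to the lowest on this scale. On the coding scale Nop10, whose coding sequence has 192 bases, was the highest at 545, and Gar1 the lowest at 188.

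RNA polymerase I genes were the least abundant role class measured per kilobase, with a median of 29.6 per kilobase of transcript over 5 genes. Polr1c, a subunit that RNA polymerase III also uses, was the highest at 106. The catalytic subunits Polr1a and Polr1b, which form the active centre, were at 37.2 and 29.6, and Polr1e, a subunit with a role in initiation and elongation, was at 15.9. Polr1c was 3.59-fold above Polr1b on the transcript scale and 3.87-fold on the coding scale. Ubtf, which encodes the upstream binding factor that keeps ribosomal DNA open for transcription, was at 3.92 and was counted as 2 transcripts, as were 5 other genes described after the roles.

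The small subunit assembly class held 20 genes, most of them parts of the small subunit processome, the large particle that forms on the nascent precursor rRNA. Its median was 81.4 per kilobase of transcript. Utp3 was the highest at 415, with a mean normalized count of 677 at percentile 88.8 of all genes above 0. Emg1, a methyltransferase for one rRNA nucleotide, was at 152, and Bms1, a GTPase of the processome, was at 149. Utp6, a protein of the complex that binds the precursor beside the early-binding proteins, was at 139. These were the 4 highest of the class on this scale. On the coding scale Utp3 was again the highest, at 481, followed by Utp6 at 301 and Emg1 at 214.

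Genes of one complex did not share one level. Of the early-binding complex that links transcription of the precursor to its processing, Wdr75 was at 117, Wdr43 at 96.2, Utp15 at 40.8 and Heatr1 at 27.5 per kilobase of transcript. Nol11 of the same complex was at 0.0583 and was counted as 2 transcripts. Of the complex named after Mphosph10, which is the scaffold that brings Imp3 and Imp4 to the precursor, Mphosph10 was at 130, Imp3 at 100 and Imp4 at 23.4. The low Imp4 value rests on a reference transcript of 5836 bases with 873 coding bases, and on the coding scale the 3 were at 143, 168 and 156. The Mphosph10 complex was thus even on the coding scale, while the early-binding complex without Nol11 ran from 29.0 for Heatr1 to 163 for Wdr43 on that scale as well.

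The other small subunit genes were between 30.5 and 102 per kilobase of transcript. Nop14, which works with Emg1 and Noc4l, was at 102, and Noc4l was at 34.5. Rrp9, which binds the U3 box C/D snoRNA, was at 85.1. Nol6 was at 77.6, Tsr1, a GTPase-like factor of late small subunit maturation, at 47.6, with 34.2% of its exon bases opposite the gene Srr, and Rrp12, which takes part in export of both subunits, at 41.2. Utp18 was at 40.9 and Utp20, a very long scaffold protein, at 30.5. The longest coding sequences of the class, Utp20 and Heatr1, were the 2 lowest of its genes counted as 1 transcript on the coding scale, at 32.1 and 29.0.

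Large subunit assembly, with 12 genes, had a median of 76.8 per kilobase of transcript, 0.944 of that of the small subunit class, while on the coding scale the ratio was 1.01. Rrp1, which joins the early large subunit precursor, was far above the rest of its class at 795, with a mean normalized count of 1578 at percentile 96.2. Its close relative Rrp1b was at 14.2 and was counted as 2 transcripts. Pes1, Bop1 and Wdr12 form one complex that is needed for maturation of the large subunit RNA. Pes1 was at 210, Bop1 at 62.6 and Wdr12 at 12.9, the lowest of the class. The Wdr12 reference transcript has 10012 bases with 1269 coding bases, and on the coding scale Wdr12 was at 102, above Bop1 at 71.0 and below Pes1 at 349. Pes1 was the highest of the 3 on both scales.

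The other large subunit genes had values from 44.0 to 137 per kilobase of transcript, apart from Nol9. Ebna1bp2, an early assembly factor, was at 137, and at 442 on the coding scale. Rrs1, which helps to bring the 5S particle into the subunit, was at 104. Nop16 was at 84.8, and at 279 on the coding scale. Nop2, an rRNA cytosine methyltransferase, was at 80.7 and Rrp15 at 72.9. Rrp8, a methyltransferase for an adenine of the large subunit rRNA, was at 44.0. Nol9, a polynucleotide kinase for rRNA ends, was at 14.2 and was counted as 2 transcripts.

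The RNA exosome is a ring of catalytically inactive subunits capped by RNA-binding proteins, to which nucleases attach. Exosc10, the nuclease of the nuclear form, was the highest of the 8 genes at 219 per kilobase of transcript. The ring subunits Exosc9, Exosc5, Exosc7 and Exosc4 were at 116, 88.0, 81.4 and 68.4, and the cap subunit Exosc2 was at 97.7. These 5 thus lay between 68.4 and 116 per kilobase of transcript. Per kilobase of coding sequence they lay between 98.2 (Exosc7) and 187 (Exosc2), with Exosc4 at 167 above Exosc9 at 143, and Exosc10 was at 230. Exosc9 and Exosc4 overlap a gene on the opposite strand, Ccna2 and Oplah, over 23.4% and 13.1% of their exon bases, and 17 of the 54 genes have some such overlap, all on the opposite strand. The ring subunit Exosc8 and the cap subunit Exosc1 lay below the range of the other 5 ring and cap subunits on both scales. Exosc8 was at 0.137 with a mean normalized count of 0.178, and Exosc1 was at 1.39 with a mean normalized count of 3.18. Stretches shared with other genes make up 10.3% of the Exosc2 transcript, and 15.7% of that of Wdr12 in the large subunit class.

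Per kilobase of transcript, the 6 genes counted as 2 transcripts and Wdr12 were the lowest of the group. The deposited count table has 1 line for each RefSeq transcript that was counted, and 48 of the 54 genes have 1 line. Their mean normalized counts ran from 47.6 to 5771 with a median of 182. The other 6 have 2 lines each, and ran from 0.178 to 69.0 with a median of 10.8, so the ranges met only between 47.6 and 69.0. Mean normalized counts were 0.178 for Exosc8, 0.184 for Nol11, 3.18 for Exosc1, 18.4 for Ubtf, 52.9 for Nol9 and 69.0 for Rrp1b. On the coding scale 5 of them were the lowest of the group, and Rrp1b at 31.8 lay between Heatr1 at 29.0 and Utp20 at 32.1.

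The same difference ran through the whole table. Of 22086 genes counted as 1 transcript, 48.3% had a mean normalized count under 10, with a median of 12.9. Of 2704 genes counted as 2 transcripts, 2029 were under 10, with a median of 0.652, and of 1090 genes counted as 3 or more, 76.1% were, with a median of 1.27. Counters of the HTSeq type set aside a read that overlaps more than one feature, so reads from exons shared by both transcripts may not be assigned to either. Among 1774 genes with 2 counted transcripts that could be matched to 2 different reference transcripts, levels were higher where more exon bases are held by only 1 of the transcripts. The median was 0.240 for 419 genes with 1 to 199 such bases, 1.31 for 200 to 499 bases, 2.35 for 500 to 999, 5.81 for 1000 to 1999 and 27.9 for 445 genes with 2000 or more. These medians are of counts per gene and not per kilobase, and the part of transcript length in them was not tested. Nol11 had 60 such bases and 3098 shared ones. Exosc1 had 1524, Ubtf 1907 and Nol9 1935. The part of the counting in the levels of the 6 genes was not tested, and their values cannot be read as low expression.

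**Figure D2:**
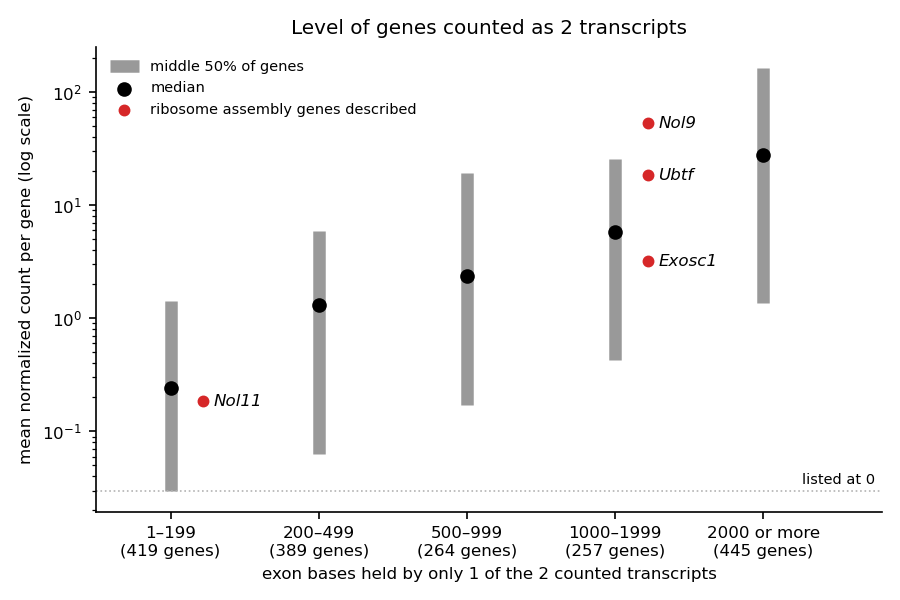
Mean normalized count per gene (log scale) of genes counted as 2 transcripts, by the number of exon bases that only 1 of the transcripts holds. Grey bars span the middle 50% of genes, black points are medians, which run from 0.240 on the left to 27.9 on the right, and red points are the 4 ribosome assembly genes that could be placed, with Nol11 at 0.184 in the leftmost bin.

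The rest of the ribosome assembly pathway had a similar level. A list of 83 further genes of the pathway was compared, of which 82 had a level. Among those counted as 1 transcript, the median per kilobase of transcript was 77.5 for 71 pathway genes and 95.3 for the 48 genes described here, a ratio of 0.813. The 3 highest per kilobase of transcript were Dnttip2 at 358, a factor of rRNA processing, Skiv2l2 at 284, the helicase that feeds RNA to the nuclear exosome, and Gnl2 at 232, a GTPase of the large subunit precursor, while on the coding scale Krr1 at 573 and Rrp7a at 475 were the highest. None of the 71 reached the level of Rrp1, Npm1 or Ncl per kilobase of transcript. Gnl3l, Nip7, Nolc1 and Tsr2 were listed at 0, and each was counted as 2 or more transcripts, as were 11 of the 82 genes in all. Of these 11 genes, 7 had a mean normalized count under 10, against 0 of the 71.

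Cytosolic ribosomal protein genes, whose products the assembly factors place into the subunits, were far more abundant. The median of the 70 counted as 1 transcript was 1485 per kilobase of transcript, 15.6-fold above that of the assembly genes, and 17.8-fold on the coding scale. Of these 70 genes, 58 lay above Npm1, the highest assembly gene on that scale. The 9 ribosomal protein genes counted as 2 or more transcripts had mean normalized counts from 0 to 8.45, with Rpl38 and Rps27a listed at 0. Rpl5, counted as 1 transcript, had a mean normalized count of 2.22 and was the exception among the 70. Copies were not sought for the ribosomal protein genes, Rpl5 included, so the part of reads shared with copies in their levels is not known.

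**Figure D3:**
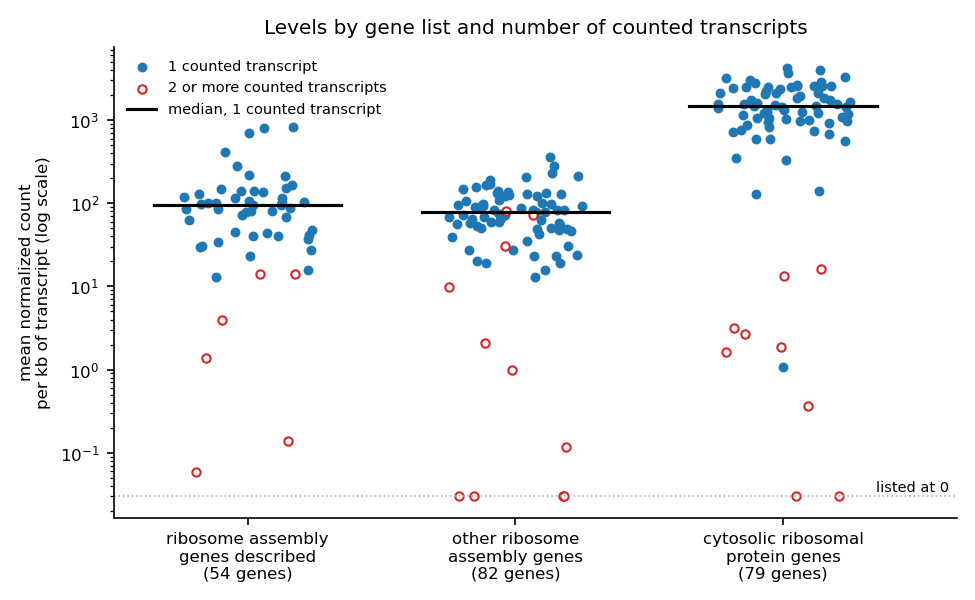
Mean normalized count per kilobase of transcript (log scale) of the 54 ribosome assembly genes, 82 other genes of the pathway and 79 cytosolic ribosomal protein genes. Filled points are genes counted as 1 transcript, open points genes counted as 2 or more, black lines the medians of the filled points (95.3, 77.5 and 1485), and points on the dotted line are listed at 0.

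Some of the genes hold snoRNA genes in their introns. Most mammalian snoRNAs are cut out of introns of other genes, often genes of the ribosome and its assembly. In the GENCODE annotation of GRCm38, 6 of the 54 genes held 18 snoRNA genes on their own strand. All 18 lay within introns of the reference transcript matched to the counted one. The share was 11.1%, against 1.16% of 18509 protein-coding genes in the table, 1.74% of those with a mean normalized count of at least 10, 2.60% of the other pathway genes and 37.2% of the ribosomal protein genes. Nop56 held 5, Nop58 4, Ncl and Wdr43 3 each, Tsr1 2 and Dkc1 1. The 9 of them with a named snoRNA symbol that also appears in the expression table are printed here, since they show the boxes that the Nop56, Nop58 and fibrillarin particle recognises in introns of the Nop56 and Nop58 genes themselves. Capitals in the box C/D snoRNAs mark the first GATG, the core of box C, and the last CTGA, box D, where found within 25 bases of the 5′ end and 20 bases of the 3′ end. In Snora75, a box H/ACA snoRNA, capitals mark the ACA box.
Snord110, in Nop56, chr2:130275506-130275573, plus strand: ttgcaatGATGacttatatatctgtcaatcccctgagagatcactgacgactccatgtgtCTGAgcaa
Snord57, in Nop56, chr2:130278016-130278087, plus strand: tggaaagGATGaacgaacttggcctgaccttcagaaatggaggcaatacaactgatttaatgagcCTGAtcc
Snord70, in Nop58, chr1:59691934-59692020, plus strand: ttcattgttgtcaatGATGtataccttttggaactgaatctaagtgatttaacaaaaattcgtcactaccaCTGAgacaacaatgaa
Snord11, in Nop58, chr1:59704790-59704873, plus strand: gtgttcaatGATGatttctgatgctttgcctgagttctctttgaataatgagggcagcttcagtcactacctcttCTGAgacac
Snord92, in Wdr43, chr17:71631281-71631365, plus strand: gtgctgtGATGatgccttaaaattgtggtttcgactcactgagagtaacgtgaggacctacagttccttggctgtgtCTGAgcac
Snord53, in Wdr43, chr17:71640879-71640956, plus strand: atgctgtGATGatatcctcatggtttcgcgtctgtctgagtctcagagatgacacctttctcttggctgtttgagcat
Snord91a, in Tsr1, chr11:74905424-74905516, plus strand: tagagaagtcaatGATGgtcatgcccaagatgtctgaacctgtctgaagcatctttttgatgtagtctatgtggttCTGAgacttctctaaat
Snord82, in Ncl, chr1:86356261-86356330, minus strand: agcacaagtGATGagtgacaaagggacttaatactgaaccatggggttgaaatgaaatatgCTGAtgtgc
Snora75, in Ncl, chr1:86351169-86351301, minus strand: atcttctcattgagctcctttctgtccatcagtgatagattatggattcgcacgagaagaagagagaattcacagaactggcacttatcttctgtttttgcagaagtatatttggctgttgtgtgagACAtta

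Of the 8 box C/D snoRNAs shown, 8 had the GATG and 7 the CTGA, and in Snord53 no CTGA was found at the 3′ end. The short stretches beside the boxes of Snord70 (ttcattgttgtc at the 5′ end and gacaacaatgaa at the 3′ end) pair with each other, as the ends of such snoRNAs do. The snoRNAs themselves had low counts. They are 68 to 133 bases long, shorter than the fragments that the paper's shearing aimed for. How well such libraries keep RNAs of this length was not tested, so these counts cannot be read as low abundance. Snora75 had a mean normalized count of 5.54, Snord57 of 1.42 and Snord53 of 1.18, and the other 6 lay between 0.112 and 0.952. The 6 host genes had a median of 118 per kilobase of transcript, against 83.1 for the other 48, and of 260 against 121 per kilobase of coding sequence. All the host genes were counted as 1 transcript, while the other 48 include the 6 genes counted as 2 transcripts. Medians without those genes were not computed. Per kilobase of transcript the host genes ran from 44.8 (Nop58) to 704 (Ncl). The other genes counted as 1 transcript ran from 12.9 (Wdr12) to 817 (Npm1). No higher level of the host genes can thus be read from these medians.

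Promoter windows of 45 of the 54 genes were found in the RefSeq table for GRCm38.p6, each from 250 bases before to 50 bases after the transcription start. They were searched on both strands for 6 motifs. CACGTG is the E-box bound by the MYC and MAX family and by other factors of its type, and MYC is known for its control of ribosome assembly genes. It was found in 9 of 45 genes, against 8.09% of 27025 genes with a promoter, 11.4% of the genes with a mean normalized count of at least 10 and 20.6% of the other pathway genes. CCGGAAG, the core site of the ETS family, was found in 15 genes (33.3%), against 9.93% of all genes and 18.7% of those of at least 10, and in 42.6% of the other pathway genes and 40.4% of the ribosomal protein genes. GGGCGG, the GC box of the SP family, was found in 32 genes (71.1%), against 38.2% of all genes and 69.2% of the genes of at least 10. TATAAA was found in 3 genes (6.67%), against 15.7% and 8.57%. AAGATGGCG, a YY1 site, was found in 2 (4.44%), against 1.64% and 3.39%, and the NRF1 motif in 1 (2.22%), against 1.07% and 2.25%. The last 4 shares were thus near those of the genes of at least 10. The shares are descriptions of these windows, and a match does not say that a factor binds.

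**Figure D4:**
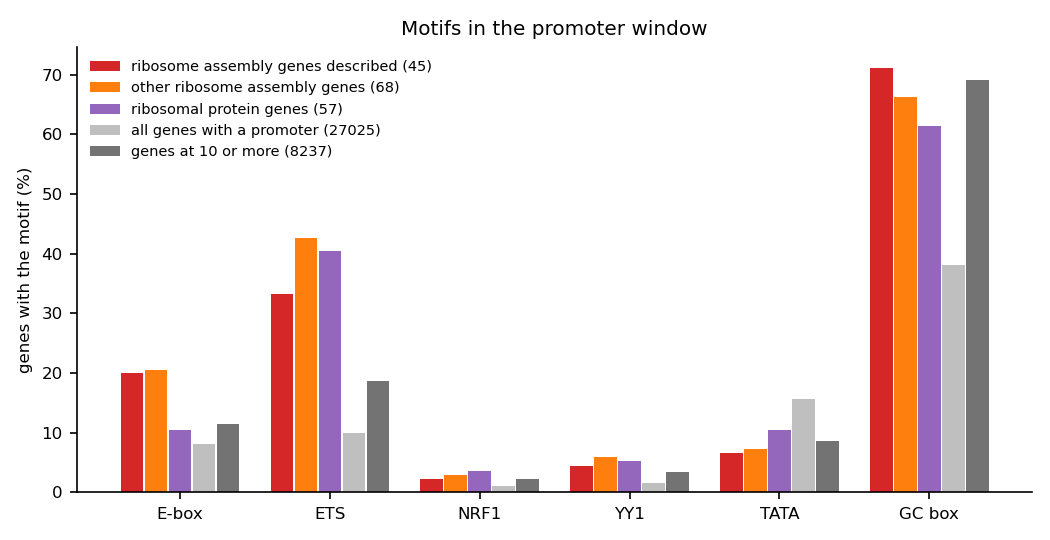
Share of genes (%) with each of 6 motifs in the promoter window, for the 45 ribosome assembly genes, 68 other pathway genes, 57 ribosomal protein genes, all 27025 genes with a promoter and 8237 genes with a mean normalized count of at least 10. The E-box is in 9 of the 45 ribosome assembly genes and in 11.4% of genes of at least 10, and the ETS shares are 33.3% and 18.7%.

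The 9 E-boxes are shown with up to 12 bases on each side, because it is the motif that the MYC family binds. Capitals mark the E-box, and the number before each sequence is the position of its first base, counted from 1 at the transcription start and negative upstream.
Imp4, position -121, chr1:34439696-34439725, plus strand: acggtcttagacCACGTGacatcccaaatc
Nop2, position -60, chr6:125131811-125131840, plus strand: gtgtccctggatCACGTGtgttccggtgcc
Exosc5, position -44, chr7:25659097-25659126, plus strand: taaacgctgagcCACGTGctagggccaact
Nol11, position -43, chr11:107189407-107189436, minus strand: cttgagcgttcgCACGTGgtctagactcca
Utp18, position -20, chr11:93885769-93885798, minus strand: gcgagcgccggtCACGTGgcttgcggcggc
Pes1, position 3, chr11:3963965-3963994, plus strand: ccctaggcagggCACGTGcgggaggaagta
Wdr43, position 18, chr17:71616220-71616249, plus strand: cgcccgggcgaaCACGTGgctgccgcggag
Tsr1, position 25, chr11:74898092-74898121, plus strand: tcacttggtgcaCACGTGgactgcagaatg
Utp20, position 38, chr10:88826765-88826789, minus strand: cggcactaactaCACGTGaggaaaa

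The 9 sites lay between 121 bases upstream and 38 bases downstream of the start, 5 before it and 4 after it. Small subunit assembly genes held 6 of them, large subunit genes 2 and exosome genes 1, and none of the snoRNP core or RNA polymerase I genes with a promoter window held one. The classes differ in size, with 20 small subunit, 12 large subunit and 8 exosome genes, not all with a window. The list holds 3 genes of the box C/D core, 4 of the box H/ACA core and 5 of the RNA polymerase I class. With so few genes, these counts do not rank the roles. Utp18, Tsr1 and Nop2 had both an E-box and an ETS motif. The 9 genes had a median of 47.6 per kilobase of transcript with a range from 0.0583 to 210, and the 36 genes without the E-box had a median of 89.8 with a range from 0.137 to 795, and both lowest values are of genes counted as 2 transcripts, Nol11 and Exosc8. Among the genes counted as 1 transcript the ranges were 23.4 to 210 with the E-box and 12.9 to 795 without it. Per kilobase of coding sequence these ranges were 32.1 to 349 with the E-box and 29.0 to 2721 without it. The 2 medians above include genes counted as 2 transcripts, and medians without those genes were not computed, so no lower level of the E-box genes can be read from them.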

How the data were processed

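Retinal RNA of 16 mice was sequenced as stranded, single-end libraries. The authors used Trimmomatic for adapters, TopHat2 for mapping to an older NCBI mouse build, HTSeq for counting and DESeq2 1.22.2 in R 3.5.1 for the groups. The signal value used is the deposited mean of counts divided by size factors. Deposited log2 fold-changes, standard errors, Wald scores and p-values are the authors' comparison and were not used. The 32 columns of deposited counts carry laboratory codes that name no mouse and were not used, so the planned edgeR test was not run. Whether counting used strand, and how transcripts were joined to genes, is not given in the sources used here.

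Transcript and coding lengths came from GENCODE M21 (GRCm38), matched by RefSeq accession, for 80.9% of genes above 0 and all 54 members. The version of the accession was not used. Where several transcripts matched, one of the same symbol with the longest coding sequence was preferred. The matched model may thus differ from the model counted on the older build. Values per kilobase, introns and exon bases all rest on this match. Copies of the 54 members only were sought with BLAST 2.17.0 at 97% identity over at least 75 bases. Protein sequences were not used here. Members and lists were chosen with earlier results of these data known. All members are named with a level per kilobase, and of the other pathway genes the 3 highest and the lowest. The planned mean normalized count and percentile are not given for every highest and lowest gene of a role. Genes named for their counted transcripts, copies, snoRNAs or motifs, and Krr1, Rrp7a, Rpl5, Rpl38 and Rps27a, were chosen after their values were seen. Steps were tested on simulated data in Python 3.11.15 with pandas 2.3.3 and numpy 2.4.6.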

Additional observations from a re-analysis of the deposited data

How the results depend on the processing

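The values are pooled over both groups, so depth per library, the spread between mice and any change with spaceflight are not analysed here. No paired analysis was possible because the columns of counts carry no mouse number. The alternatives for the comparison of the groups (DESeq2, no filter, a replicate block, a stricter threshold, leaving out each mouse) and for protein features were not run. The median percentile of the mean normalized counts was 67.5, and 48.3 among genes of at least 10, 61.2 among protein-coding genes and 66.0 among genes counted as 1 transcript. Per kilobase of transcript it was 69.8, and 64.1 with coding length, 57.0 among genes of at least 10 and 67.7 among genes counted as 1 transcript. The ratio of the large to the small subunit class median was 0.944. It was 1.31 for means of log2 levels, 0.835 per gene, 1.01 with coding length and 0.971 for genes counted as 1 transcript. The order of these classes thus changed with means of log2 levels and with coding length. The means of log2 levels include genes counted as 2 transcripts, among them Nol11 of the small subunit class at 0.0583 per kilobase of transcript. Means without those genes were not computed, so the order of the classes cannot be read from the 1.31. The other pathway genes had a median of 70.2 per kilobase, 71.3 with symbols as listed and 77.5 for genes counted as 1 transcript. The share of the genes compared with an E-box was 8.09%, and 11.4% among genes of at least 10, and with an ETS motif 9.93% and 18.7%. The settings on counted transcripts, and coding length for the classes, were chosen after seeing the data.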
